A study of Mus musculus with 11 samples.

Results

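A set of 37 genes of the cell cycle and of DNA replication was followed through RNA-Seq libraries of mouse dorsal root ganglia (DRGs). The genes were taken by name from a table of 36670 genes, in which each had 1 row, and all 37 were found. The libraries came from 11 mice in 4 groups, which were 3 WT mice labelled as controls, 3 WT mice at 4 weeks after paclitaxel (PTX), 3 *Gpr37l1* KO mice labelled as controls and 2 *Gpr37l1* KO mice at 4 weeks after PTX. PTX is a chemotherapy drug that stabilises microtubules and causes a painful neuropathy, and GPR37L1 is a receptor of satellite glial cells, the glia that wrap sensory neurons. The KO is a targeted germline mutation carried by every cell, kept with littermates on a C57BL/6 background. The full name of the line in the paper also lists a strain other than C57BL/6. The sources used here do not give the age of the sequenced mice or whether ganglia were pooled. Each library is therefore read as 1 mouse. Mouse 3 of each group was female and the others were male, so sex and that number cannot be told apart, and the KO PTX mice carried the numbers 2 and 3. Values are given in the order WT controls 1, 2 and 3, WT PTX 1, 2 and 3, KO controls 1, 2 and 3, and KO PTX 2 and 3.

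Dividing cells copy their DNA in S phase and part the copies in mitosis. The MCM helicase is loaded on DNA with the help of CDC6 and CDT1 and is activated with CDC45, PCNA is the sliding clamp of DNA polymerases, and RRM2 and TYMS supply deoxynucleotides. Cyclins with CDK1 drive entry into mitosis, kinases such as AURKA, AURKB and PLK1 and the checkpoint proteins BUB1, BUB1B and TTK govern the spindle, and the anaphase-promoting complex with CDC20 and UBE2C ends it. E2F1, MYBL2 and FOXM1 are transcription factors of this programme. Sensory neurons do not divide, and glia, macrophages, endothelial cells and fibroblasts of adult ganglia divide rarely.

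Total estimated counts ranged from 52735648 to 80348732 per library (52.7 to 80.3 M). They fell into a set of 4 libraries between 52.7 and 56.7 M, which were WT control 1, WT PTX 3 and both KO PTX libraries, and a set of 7 between 68.8 and 80.3 M, and this split bears on most results below. *Gpr37l1* was 14.56 to 35.7 FPKM (fragments per kilobase of transcript, scaled to library size) in the WT libraries, 0.21 to 0.29 FPKM in KO controls, and 0.6 and 1.15 FPKM in the KO PTX libraries. All 10 sensory neuron markers and all 6 satellite glial markers were above 0 in every library, with summed levels of 3392 to 4591 and 236 to 376 FPKM. Skeletal muscle markers summed to 3.22 to 561 FPKM and erythroid markers to 72.5 to 297 FPKM.

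All 37 genes were above 0 in every library, and all had a mean estimated count of at least 10, the lower limit for testing. Their levels were low. The mean over the mice was under 0.5 FPKM for 18 genes, 0.5 to 1 for 9, 1 to 2 for 6 and at least 2 for 4, and the median gene had 0.589 FPKM. The lowest was *Cenpf*, a kinetochore protein, at a mean of 0.0573 FPKM. Mean estimated counts still ranged from 37.3 to 2921 per gene, since libraries were deep, although the smallest single count was 7 (*Aurkb* in KO control 3). In whole ganglia, fewer cells of a type and less RNA per cell cannot be told apart.

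**Figure D1:**
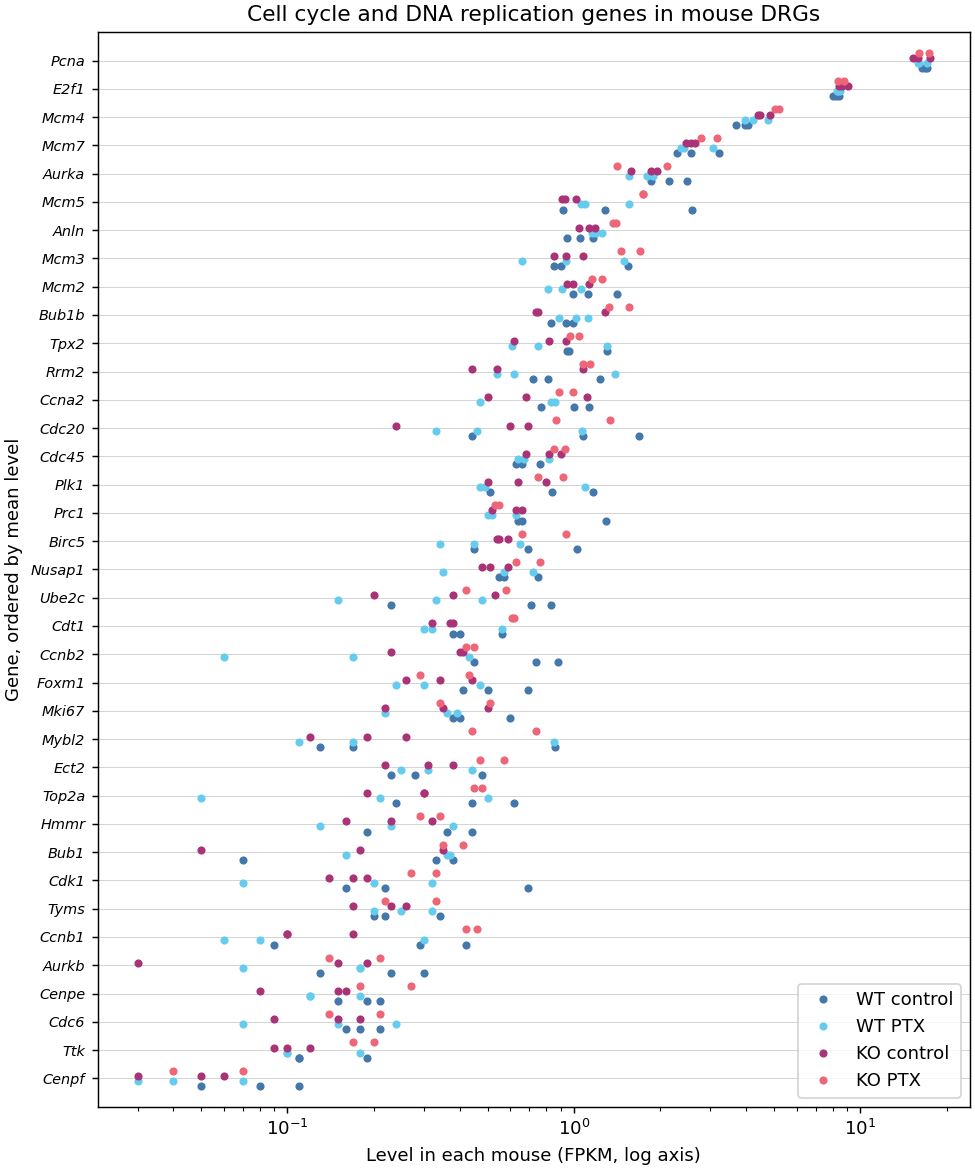
Level of each of the 37 genes in each mouse (FPKM, log axis), with genes ordered by mean level and 1 point per mouse coloured by group. *Pcna* and *E2f1* lie in narrow bands near 16.5 and 8.46 FPKM, while genes such as *Mybl2*, *Ccnb1* and *Cdc20* spread widely within groups.

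The most abundant members were *Pcna* and *E2f1*. *Pcna* was 16.84, 17.16, 16.46, 16.02, 15.95, 17.03, 17.51, 15.25, 15.88, 17.39 and 16.02 FPKM, with a coefficient of variation (CV) of 4.44% over the 11 mice. *E2f1* was 8.46, 8.2, 8, 8.28, 8.52, 8.33, 8.45, 8.65, 9.08, 8.35 and 8.75 FPKM, with the smallest CV, 3.44%. All groups overlapped in both genes, and no mouse stood apart. *Mcm4* was 3.68, 3.96, 4.04, 3.97, 4.23, 4.76, 4.46, 4.41, 4.86, 5.2 and 5.02 FPKM. Its mean was lowest in WT controls and highest in KO PTX, and these groups did not overlap. That pair of groups was not among the comparisons tested, and the share of all genes so separated was not counted. The MCM subunits were unequal, with means of 4.42 (*Mcm4*), 2.69 (*Mcm7*), 1.35 (*Mcm5*), 1.13 (*Mcm3*) and 1.07 FPKM (*Mcm2*).

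*Aurka*, the highest of the mitotic kinases, was 2.15, 2.49, 1.86, 1.56, 1.8, 1.89, 1.86, 1.95, 1.58, 1.42 and 2.11 FPKM, and *Anln*, an actin-binding protein of the cleavage furrow, was 0.95, 1.17, 1.05, 1.2, 1.16, 1.25, 1.13, 1.19, 1.04, 1.37 and 1.4 FPKM. *Tpx2*, a spindle assembly factor, was 0.96, 1.31, 0.95, 0.75, 0.61, 1.31, 0.94, 0.82, 0.62, 0.97 and 1.04 FPKM. In *Anln* both KO PTX mice were above every other mouse, a count that was not made over all genes. *Aurka* and *Tpx2* were spread over all groups. *Rrm2* was 1.23, 0.72, 0.81, 0.62, 0.54, 1.39, 1.08, 0.54, 0.44, 1.14 and 1.08 FPKM, and *Ccna2*, the cyclin of S phase and early mitosis, was 1, 1.13, 0.77, 0.86, 0.47, 0.83, 1.11, 0.68, 0.5, 0.89 and 0.99 FPKM. The proliferation marker *Mki67* was 0.38, 0.6, 0.4, 0.39, 0.22, 0.36, 0.5, 0.35, 0.22, 0.34 and 0.51 FPKM. Its groups all overlapped, and its highest mouse was a WT control. *Cdc20* was 1.69, 1.08, 0.44, 0.33, 0.46, 1.07, 0.69, 0.6, 0.24, 1.34 and 0.87 FPKM, a wide spread within each group. Over the 37 genes the median CV was 31.4%, 8 genes had a CV under 20% and 10 had one over 40%, the largest being 82.8% for *Mybl2*.

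Promoter windows were read for the 32 genes that matched RefSeq by symbol (build GRCm38.p6, 300 bases around the transcription start). They were searched on both strands for the CCAAT box, for TTTGAA, the core of the cell cycle homology region through which the DREAM complex acts, and for TTCCCGC and TTGGCGC, letters of E2F sites. TTGGCGC can share letters with a CCAAT box read on the other strand. A CCAAT box stood in 24 of the 32 (75%) against 41.1% of all 27025 genes with a window, and at least 2 of them in 17 (53.1%) against 13.3%. TTTGAA stood in 17 (53.1%) against 20.2%, and an E2F form in 9 (28.1%) against 7.79%. These are matches of letters and not measured sites. The windows of 4 genes in which both KO PTX mice were above all KO controls, with *Pcna* as a gene that hardly varied, are shown 5′ to 3′ on the gene's strand, with the searched letters in capitals.
Mybl2, chr2:163054385-163054684, + strand: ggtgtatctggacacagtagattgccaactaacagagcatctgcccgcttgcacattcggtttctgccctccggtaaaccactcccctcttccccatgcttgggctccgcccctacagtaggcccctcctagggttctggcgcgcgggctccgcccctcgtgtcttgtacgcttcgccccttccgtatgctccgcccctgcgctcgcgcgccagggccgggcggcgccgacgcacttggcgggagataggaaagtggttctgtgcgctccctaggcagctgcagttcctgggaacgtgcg
Mcm5, chr8:75109259-75109558, + strand: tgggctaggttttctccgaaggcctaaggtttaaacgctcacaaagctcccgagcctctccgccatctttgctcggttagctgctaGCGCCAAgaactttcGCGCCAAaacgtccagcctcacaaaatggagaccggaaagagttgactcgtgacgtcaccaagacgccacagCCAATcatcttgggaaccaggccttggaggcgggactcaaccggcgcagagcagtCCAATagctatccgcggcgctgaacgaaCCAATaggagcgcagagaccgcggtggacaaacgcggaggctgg
Ccnb1, chr13:100786437-100786736, - strand: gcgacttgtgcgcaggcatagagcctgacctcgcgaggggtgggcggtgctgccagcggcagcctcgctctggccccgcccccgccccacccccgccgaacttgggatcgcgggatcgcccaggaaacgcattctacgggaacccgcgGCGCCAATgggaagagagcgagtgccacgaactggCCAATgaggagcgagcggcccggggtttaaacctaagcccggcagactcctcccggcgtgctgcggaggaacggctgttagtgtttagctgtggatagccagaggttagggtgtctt
Cdc20, chr4:118437294-118437593, - strand: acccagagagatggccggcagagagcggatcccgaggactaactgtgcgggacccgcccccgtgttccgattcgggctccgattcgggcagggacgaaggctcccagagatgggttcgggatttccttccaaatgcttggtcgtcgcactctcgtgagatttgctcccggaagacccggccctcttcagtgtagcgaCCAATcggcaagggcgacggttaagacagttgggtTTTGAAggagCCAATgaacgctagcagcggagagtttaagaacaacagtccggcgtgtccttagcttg
Pcna, chr2:132253131-132253430, - strand: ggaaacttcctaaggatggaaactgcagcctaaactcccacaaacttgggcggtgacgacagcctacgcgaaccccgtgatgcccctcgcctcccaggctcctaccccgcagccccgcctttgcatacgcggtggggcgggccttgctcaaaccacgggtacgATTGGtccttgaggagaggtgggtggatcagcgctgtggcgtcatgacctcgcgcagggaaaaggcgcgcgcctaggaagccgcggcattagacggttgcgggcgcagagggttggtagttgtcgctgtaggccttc
*Mcm5* held 3 CCAAT boxes and 2 E2F forms, *Ccnb1* held 2 CCAAT boxes and 1 E2F form, and *Cdc20* held 2 CCAAT boxes and 1 TTTGAA. *Pcna* held 1 CCAAT box. In *Mybl2* none of the searched letters was found in this window. Forms of E2F site other than these 2 were not searched, so this does not show that the window lacks one.

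Levels were compared between the 2 sets of libraries. In 36 of the 37 the mean FPKM was higher in the 4 libraries under 60 M counts than in the other 7, against 44.3% of all genes tested, and in 8 all 4 libraries were above all the others, against 1.16% of all genes. The median ratio of the sets was 1.33 for the 37 genes and 0.985 for all genes. The exception was *Prc1*, a microtubule bundling protein of the spindle midzone, at 0.64, 1.3, 0.66, 0.5, 0.63, 0.52, 0.63, 0.66, 0.52, 0.55 and 0.53 FPKM. Its highest value was WT control 2 and no set stood apart. The line at 60 M was drawn after the values were seen, so these counts describe the libraries.

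The 8 genes were *Mcm3*, *Mcm5*, *Mcm7*, *Cdt1*, *Cdk1*, *Ccnb1*, *Ect2* and *Mybl2*. *Mybl2*, named here after its values were seen, was 0.86, 0.13, 0.17, 0.17, 0.11, 0.85, 0.19, 0.26, 0.12, 0.74 and 0.44 FPKM. WT control 1, WT PTX 3 and the 2 KO PTX mice were at 0.44 FPKM or more, and every other mouse at 0.26 or less. In a fit with this set as a term, *Mybl2* was 2.64 higher on the log2 scale (SE 0.32), given as a description because the set and the gene were chosen after the values were seen. Since the KO groups lie wholly on one side, that term is set, apart from sex, by the WT mice. In the same fit 34 of the 37 were higher in the set (48.2% of all genes), with a median of 0.43 against -0.0085 over all genes.

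**Figure D2:**
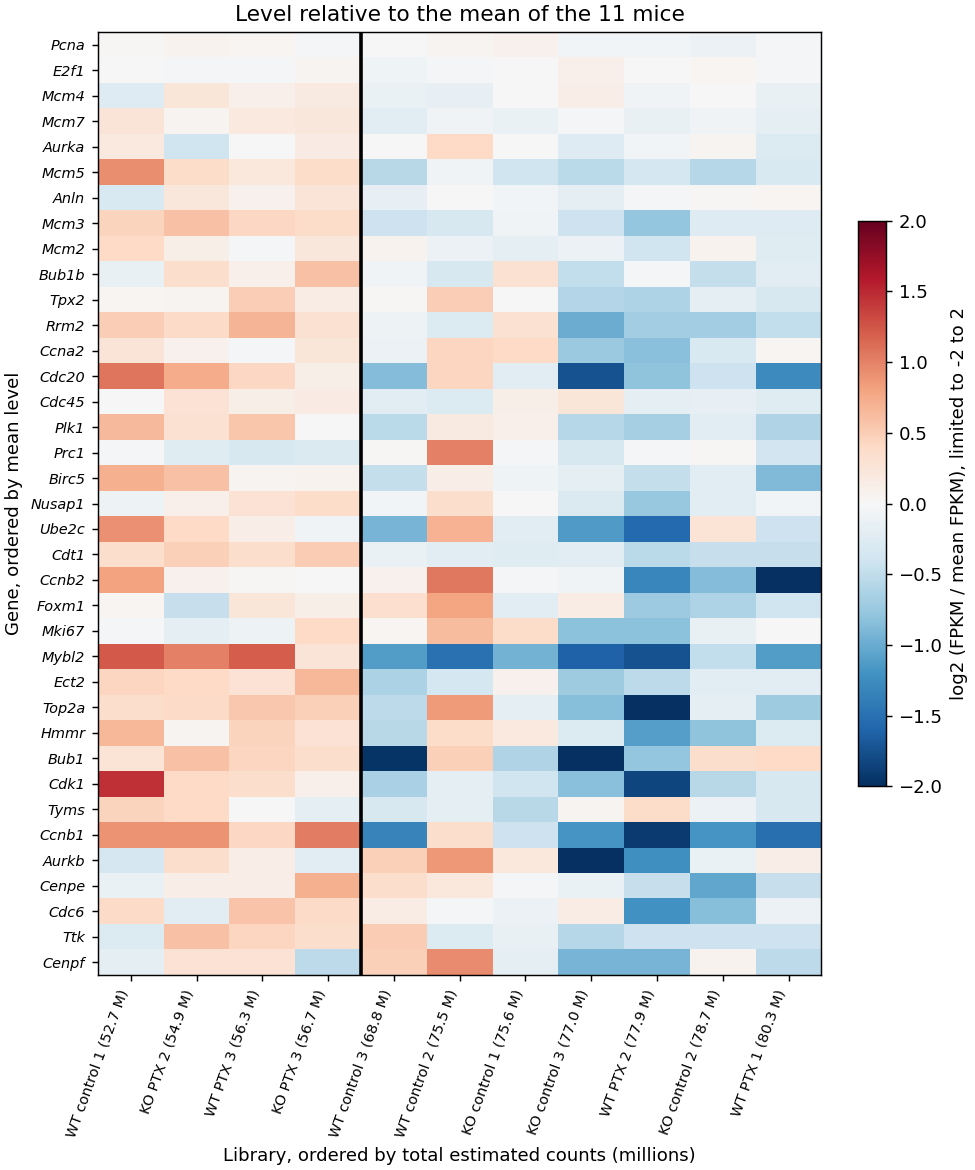
Level of each gene in each library over its mean of the 11 mice (log2, colour scale limited to -2 to 2), with libraries ordered by total estimated counts and a line between those under and over 60 M. The 4 libraries at the left are mostly above the mean (red) and hold both KO PTX libraries.

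The summed level of genes listed as central glia markers was higher in the same libraries. The 7 spinal cord glia markers (*Mog*, *Mobp*, *Opalin*, *Aqp4*, *Gfap*, *Olig1* and *Olig2*) summed to 5.11 to 17.53 FPKM in the 4 libraries and to 1.98 to 3.91 FPKM in the other 7. By group the sums were 1.98 to 7.48 in WT controls, 2.11 to 5.11 in WT PTX, 2.45 to 3.91 in KO controls, and 7.66 and 17.53 in KO PTX. *Mobp*, a myelin protein of oligodendrocytes, was 1.57, 1.17, 1.16 and 6.11 FPKM in WT control 1, WT PTX 3, KO PTX 2 and KO PTX 3, and 0.04 to 0.25 FPKM elsewhere. Not every marker followed the 4 libraries. *Aqp4* was 1.28 FPKM in WT control 1 and 0.95 to 2.19 FPKM in the other 7, *Gfap* was 0.98 FPKM in WT PTX 3 against up to 1.84 in KO control 1, and *Olig2* was at 0 in WT PTX 3. *Olig2* and *Opalin* were each at 0 in 7 libraries, *Mog* in 5 and *Olig1* in 4. *Gfap* and *Aqp4* were 3.94 and 1.28 of the 7.48 FPKM in WT control 1, and 0.98 and 2.51 of 5.11 in WT PTX 3. They were 3.51 and 2.29 of 7.66 in KO PTX 2, and 4.62 and 3.54 of 17.53 in KO PTX 3. Which cells in the samples expressed these genes was not measured. Neutrophil precursor markers were 8.5 to 18.14 FPKM in the 4 libraries and 7.35 to 39.51 in the others, and macrophage markers 25.65 to 46.92 and 28.84 to 47.85. The part of spinal cord tissue or of library depth in the levels of the 37 genes was not tested.

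**Figure D3:**
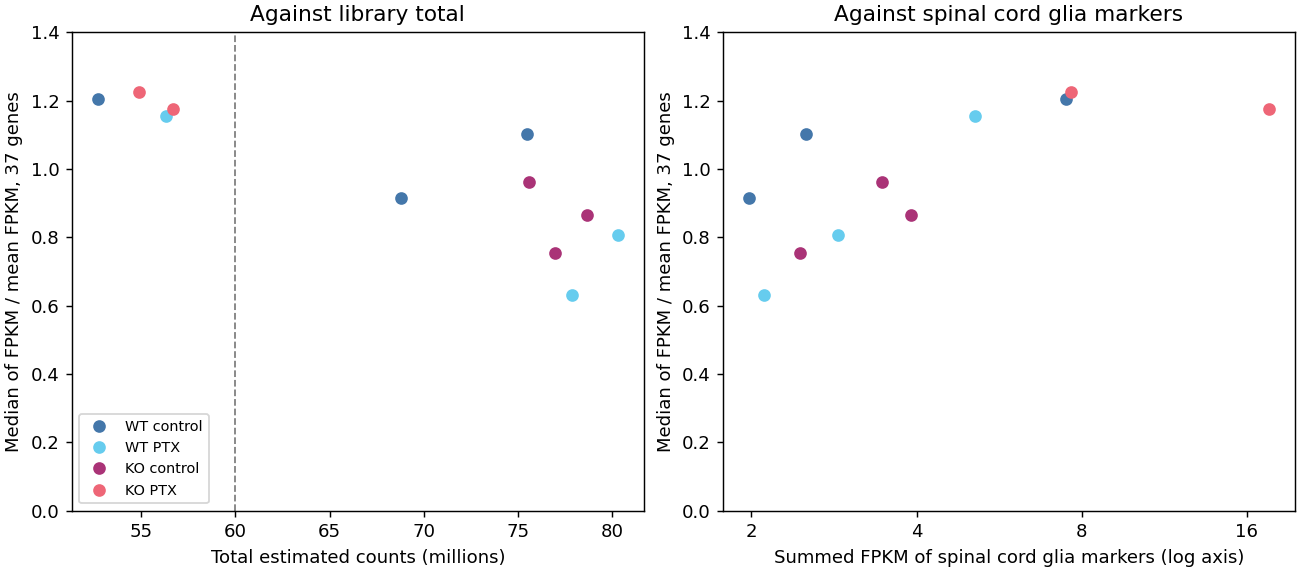
Median over the 37 genes of the level relative to the mean of the 11 mice, against total estimated counts (left, line at 60 M) and against the summed FPKM of spinal cord glia markers (right, log axis), 1 point per library. The 4 libraries under 60 M lie between 1.16 and 1.22, and WT control 2, at 1.1, is the nearest of the others.

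Within groups the pattern was seen in WT PTX more than in WT controls. WT PTX 3 was the highest of its 3 mice in 31 of the 37 genes, against 32.2% of all genes, and WT control 1 was the highest of its 3 mice in 19, against 31.6%. WT PTX 3 is also the only female of its group, so sex and library total cannot be told apart within WT PTX. The median relative level was 1.21, 1.1 and 0.915 in WT controls, 0.807, 0.632 and 1.16 in WT PTX, 0.963, 0.865 and 0.753 in KO controls, and 1.22 and 1.18 in KO PTX. WT PTX 2 had the lowest value of all mice in 17 genes, a count that was not made over all genes.

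PTX in WT mice was compared with WT controls to ask what the drug left in the ganglia at 4 weeks. None of the 37 genes passed an adjusted p of 0.05 by edgeR, where 0.00501% of genes tested did. DESeq2 called none of the 34 members to which it gave an adjusted p, where it called 2% of the 15716 genes that had one. It gave none to *Ccnb2*, *Aurkb* and *Ttk*, and *Ccnb2* had its smallest unadjusted p of all members (0.00405). At an unadjusted p under 0.05 there were 3 by edgeR, all lower after PTX, against 11.3% of all genes. The genes leaned lower, with 8 of 37 above 0 (47.6% of all genes) and a median log2 fold change of -0.32 (-0.015 over all genes). In 2 genes the PTX mice were all below the controls, against 6.86% of all genes.

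The 3 genes with the smallest p were *Ccnb2*, *Prc1* and *Foxm1*. *Ccnb2*, a B-type cyclin, was 0.74, 0.88 and 0.45 FPKM in controls and 0.06, 0.17 and 0.43 FPKM after PTX, a log2 fold change of -1.80 (SE 0.63, adjusted p = 0.375). The groups did not overlap, although WT PTX 3 was close to the lowest control. *Prc1* had a log2 fold change of -0.64 (SE 0.24, adjusted p = 0.393), and its WT groups were apart by the step from 0.63 to 0.64 FPKM. Without WT control 2 *Prc1* was at -0.27 and *Foxm1* at -0.37. *Foxm1* was 0.41, 0.69, 0.5, 0.3, 0.24, 0.47, 0.34, 0.26, 0.44, 0.29 and 0.43 FPKM, and its log2 fold change was -0.73 (SE 0.28, adjusted p = 0.399) with overlapping groups. All 4 genes of cyclins and *Cdk1* and all 6 of kinetochore and spindle were below 0, with medians of -0.87 and -0.42, while the 9 replication genes had a median of -0.10. *Mki67* and *Top2a*, the topoisomerase of mitotic chromosomes, had values of -0.52 (SE 0.34) and -0.87 (SE 0.68). Without WT control 2 they were at -0.29 and -0.52, and without WT PTX 2 at -0.26 and -0.18. *Top2a* was at -1.45 without WT control 3 and at -1.92 without WT PTX 3. Macrophage markers were also lower here, at 25.65 to 30.9 FPKM after PTX and 36.89 to 47.85 FPKM in controls. With their score as a covariate the median of the 37 genes was -0.84, farther from 0, and *Prc1* turned to 0.11. Markers of blood and marrow cells were below 0 as well, in 9 of 9 neutrophil precursor genes tested (median -0.99), 6 of 6 mature neutrophil genes (-1.04), 10 of 10 erythroid genes (-0.50) and 4 of 4 megakaryocyte genes (-0.81). Of these lists only the neutrophil precursor score was used as a covariate. The part of the others in the levels of the 37 genes was not tested. The median of the 37 was -0.16 without WT control 1, -0.073 without WT PTX 2 and -0.69 without WT PTX 3.

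In KO mice PTX was compared with KO controls. Again no gene passed an adjusted p of 0.05 by edgeR (0.00501% of genes tested) or DESeq2 (0.28%), but 33 of the 37 were above 0 (47.9% of all genes), with a median log2 fold change of 0.38 against -0.0085. At an unadjusted p under 0.05 edgeR gave 6 genes, all higher (4.71% of all genes). In 20 genes both PTX mice were above all 3 controls (11.8% of all genes). Both KO PTX libraries are under 60 M counts and no KO control is, so that PTX, library total and the spinal cord markers cannot be told apart in this contrast. With the 4 libraries as a covariate the median was -0.097 and 14 genes were above 0, and with the spinal cord glia score it was -0.099 with 15 above 0. Within KO the 4-library covariate is the same as PTX, so its term was set, apart from sex, by the WT mice. That fit therefore cannot part PTX from library total in KO. The share of all genes above 0 was not counted in fits with these covariates, here and below. Without KO control 3 the median was 0.23. Macrophage, blood and marrow markers were mostly below 0 here. This held for 8 of 10 macrophage markers (median -0.17), 7 of 9 neutrophil precursor markers (-1.14) and 5 of 6 mature neutrophil markers (-0.56). It also held for 10 of 10 erythroid markers (-0.58) and 3 of 4 megakaryocyte markers (-0.25). Fibroblast (5 of 5), endothelial (7 of 7), skeletal muscle (9 of 9) and myelinating Schwann cell markers (6 of 7) were below 0 as well. Sensory neuron markers were split 5 and 5, and 6 of 6 spinal cord glia markers tested were above 0. Beyond the macrophage, neutrophil precursor and spinal cord glia scores used as covariates, the part of these cells was not tested.

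*Ccnb1*, the main mitotic B-type cyclin, was 0.42, 0.29, 0.09, 0.08, 0.06, 0.3, 0.17, 0.1, 0.1, 0.42 and 0.46 FPKM. Both KO PTX mice were above all KO controls, and WT control 1 was as high. Its log2 fold change was 1.78 (SE 0.73, adjusted p = 0.995). *Mcm5*, a subunit of the helicase, was 2.58, 1.29, 0.92, 1.09, 1.06, 1.56, 1.02, 0.91, 0.93, 1.74 and 1.75 FPKM, with a log2 fold change of 0.89 (SE 0.37, adjusted p = 0.995), and it was -0.075 with the 4 libraries as a covariate. *Anln* had the smallest p, with a log2 fold change of 0.31 (SE 0.13, adjusted p = 0.995). The other genes at an unadjusted p under 0.05 were *Bub1b*, *Cenpe* and *Cdt1*, at 0.62, 0.71 and 0.76. By role, all 9 replication genes were above 0 (median 0.21), as were all 4 of cyclins and *Cdk1* (median 0.60), 6 of 7 mitotic kinases and checkpoint genes (median 0.62) and 5 of 6 kinetochore and spindle genes (median 0.36). *Pcna*, *E2f1* and *Foxm1* were at 0.044, -0.035 and -0.042.

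**Figure D4:**
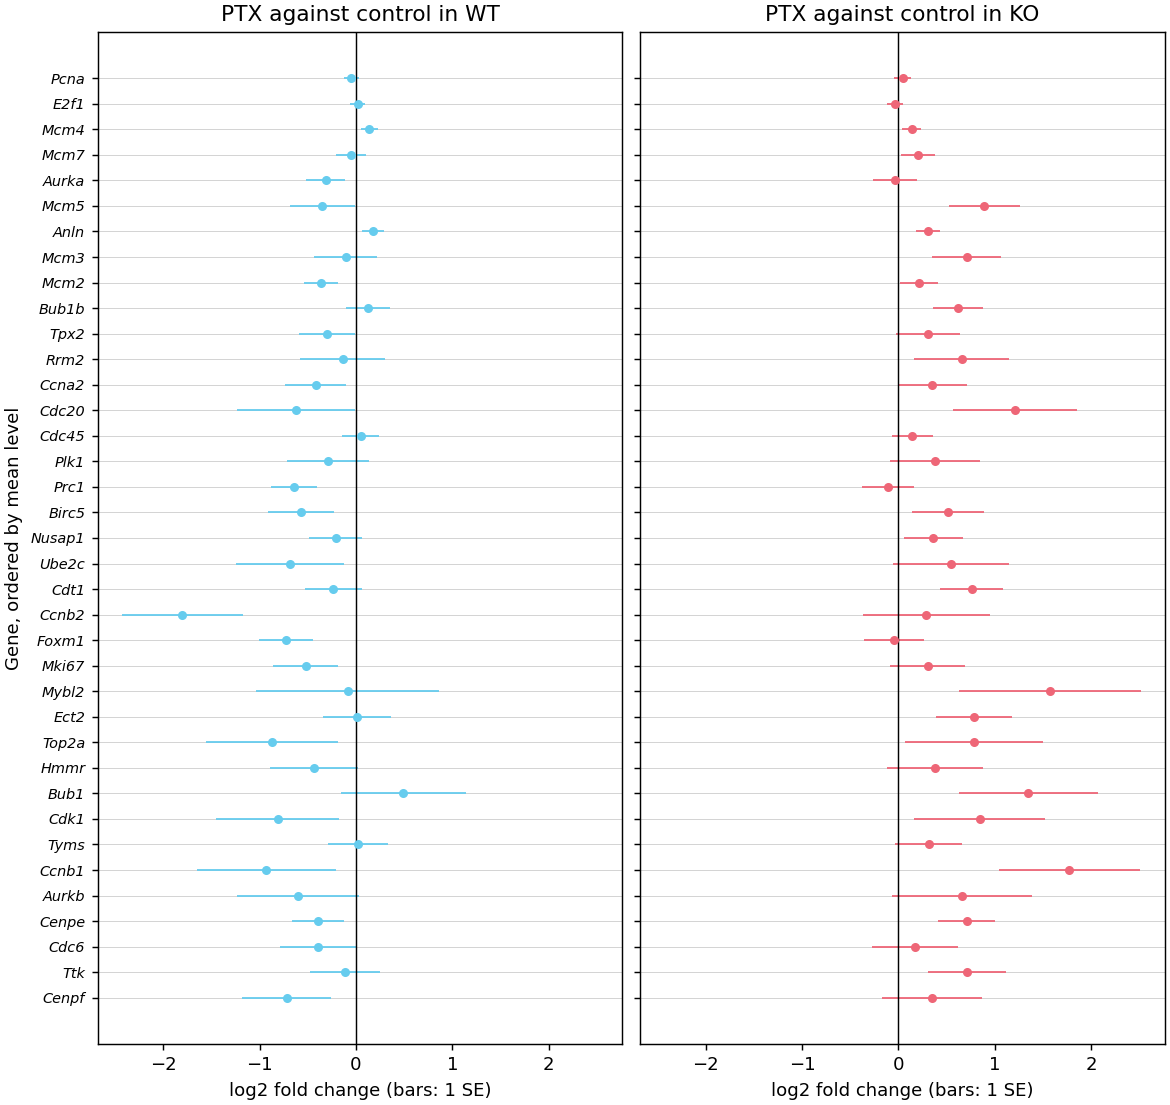
Log2 fold change of each gene for PTX against control in WT (left) and in KO (right), from the edgeR fit of all 11 libraries, with bars of 1 standard error and genes ordered by mean level. In WT 8 of 37 points lie above 0 and in KO 33 of 37, and no gene passed an adjusted p of 0.05 in either.

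KO controls were compared with WT controls to ask what loss of the receptor changed without PTX. No member passed by edgeR (0.00501% of genes tested) or DESeq2 (0.33%), and 5 of 37 were above 0 (49% of all genes), with a median of -0.38 against -0.0052. At an unadjusted p under 0.05 there were 2 by edgeR (6.77% of all genes). *Mcm4* was higher in every KO control than in every WT control, the 1 gene so placed (4.26% of all genes), with a log2 fold change of 0.23 (SE 0.089, adjusted p = 0.732). *Foxm1* was at -0.67 (SE 0.28, adjusted p = 0.732) and *Mcm5* at -0.73 (SE 0.34, adjusted p = 0.732), with overlapping groups. Without WT control 1 *Mcm5* was at -0.20, and without WT control 2 *Foxm1* was at -0.31. *Tpx2* and *Ccnb2*, 2 of the 37, were lower in every KO control than in every WT control (4.69% of all genes for that direction). The groups were apart by the step from 0.94 to 0.95 FPKM in *Tpx2* and from 0.41 to 0.45 FPKM in *Ccnb2*. WT control 1 belongs to the 4 libraries and no KO control does, and without those libraries the median was -0.23. It was -0.19 without WT control 1 and -0.19 without KO control 3. In this contrast 9 of 10 macrophage markers (median -0.39), 6 of 6 mature neutrophil markers (-0.83) and 8 of 9 neutrophil precursor markers (-0.58) were also below 0.

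After PTX, KO mice were compared with WT mice. All 37 genes were above 0 (48.8% of all genes), with a median of 0.38 against -0.0063, and none passed by edgeR (0.01% of genes tested) or DESeq2 (0.0651%). At an unadjusted p under 0.05 there was 1 by edgeR, against 3.83% of all genes. In 11 genes both KO mice were above all WT mice (10.7% of all genes). *Mcm4* had a log2 fold change of 0.23 (SE 0.10, adjusted p = 0.996), *Ccnb1* 1.56 (SE 0.73, adjusted p = 0.996) and *Cenpe*, the kinetochore motor, 0.62 (SE 0.30, adjusted p = 0.996). *Cenpe* was 0.15, 0.19, 0.21, 0.12, 0.12, 0.18, 0.16, 0.08, 0.15, 0.18 and 0.27 FPKM, so that KO PTX 2 equalled WT PTX 3. Without WT PTX 3 *Ccnb1* was at 3.05 and the median at 0.82, without WT PTX 2 the median was 0.17, and without KO PTX 2 *Mcm4* was at 0.14. With the 4 libraries as a covariate 21 of the 37 were above 0, and with the spinal cord glia score 16 were, with a median of -0.038. In this contrast 7 of 9 neutrophil precursor markers (median -0.49), 5 of 6 mature neutrophil markers (-0.19) and 8 of 10 erythroid markers (-0.43) were below 0. So were 3 of 4 megakaryocyte markers (-0.065), while 7 of 10 macrophage markers were above 0 (0.087).

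The difference of the PTX change between genotypes was tested directly. No member passed by edgeR (0.00501% of genes tested) or DESeq2 (0.2%), and 5 had an unadjusted p under 0.05 by edgeR (6.16% of all genes). In 36 of 37 the PTX change was higher in KO (49.7% of all genes), with a median of 0.80 against -0.0019, and *E2f1* was the exception at -0.054. The 5 genes were *Cenpe* at 1.10 (SE 0.40), *Ccnb1* at 2.70 (SE 0.99), *Mcm5* at 1.24 (SE 0.49), *Ccnb2* at 2.09 (SE 0.89) and *Cdt1* at 0.99 (SE 0.44), each with an adjusted p of 0.758. *Top2a* was 0.44, 0.62, 0.24, 0.21, 0.05, 0.5, 0.3, 0.3, 0.19, 0.45 and 0.48 FPKM and differed by 1.66 (SE 0.96). This contrast uses the same mice as the others, and with the 4 libraries as a covariate its median was 0.18, with 24 genes above 0. Without KO control 3 it was 0.52.

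Other genes of the pathway were read from 3 lists. None of the 50 other replication genes, 57 other mitosis genes or 26 G1 regulators passed by edgeR in any contrast. The mitosis list had 11 of 57 above 0 for PTX in WT, 45 in KO, 11 between controls and 43 after PTX, and medians of -0.30, 0.29, -0.36 and 0.27. Replication genes had medians of 0.012, 0.073, -0.058 and 0.023, and G1 regulators of -0.076, -0.094, -0.025 and -0.069. DESeq2 called *Cdkn1a* (p21), an inhibitor of cyclin-dependent kinases, lower after PTX in WT at a log2 fold change of -0.59 by edgeR (SE 0.16, adjusted p = 0.290, DESeq2 0.0101), and *Cdkn1b* (p27), of the same family, higher at 0.33 (SE 0.089, adjusted p = 0.298, DESeq2 0.0383). *Cdkn1a* was 32.96, 32.53 and 17.67 FPKM in WT controls and 18.87, 20.53 and 15.01 FPKM after PTX, so the groups overlapped. *Cdkn1b* was 13.04, 14.09 and 19.03 FPKM in WT controls and 19.07, 19.28 and 19.46 FPKM after PTX. In both genes WT control 3 lay with or close to the PTX mice. In KO mice *Cdkn1a* was 20.3, 25.72 and 18.99 FPKM in controls and 19.15 and 18.29 after PTX. *Cdkn1b* was 18.91, 18.35 and 19.95 FPKM in KO controls and 17.64 and 18.63 after PTX. WT controls 1 and 2 were thus above every other mouse in *Cdkn1a* and below every other mouse in *Cdkn1b*. *Ccnf* had the smallest p of the mitosis list for PTX in KO, at 0.92 (SE 0.32), and *Nek2* after PTX, at 1.65 (SE 0.55).

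*Mcm6*, the MCM subunit outside the 37 genes, stood apart in the controls. It was 2.88, 2.53 and 2.46 FPKM in WT controls and 0.56, 0.43 and 1.33 FPKM in KO controls, and the groups did not overlap. After PTX it was 1.24, 2.1 and 1.53 FPKM in WT and 1.03 and 1.37 FPKM in KO, which overlapped. The log2 fold change between controls was -1.87 (SE 0.34), which edgeR did not call (adjusted p = 0.732) and DESeq2 called (adjusted p = 1.26e-06). The other subunits of the same ring were at -0.21 (*Mcm2*), -0.20 (*Mcm3*), 0.23 (*Mcm4*), -0.73 (*Mcm5*) and -0.084 (*Mcm7*) in that comparison. *Mcm6* lies at chr1:128331590-128359664 (GRCm38), 6.8 Mb from *Gpr37l1*. Whether the KO and WT mice differ in strain sequence in this region was not tested.

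Reads of some members could be shared. Exons of 3 members overlap an exon of a gene on the same strand in GENCODE M21 (*Mcm7*, *Foxm1* and *Top2a*), and exons of 8 overlap one on the opposite strand, among them *Ube2c* with the muscle gene *Tnnc2*. The kit keeps strand, but the sources used here do not give how strand was set in counting. The table also lists *Pcna-ps2* at 0.67 to 1.52 FPKM and *Ccnb1-ps* at 0 to 0.39 FPKM, pseudogenes to which reads of *Pcna* and *Ccnb1* could be assigned, so values of these genes are less certain.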

How the data were processed

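Poly(A) RNA of mouse DRGs was sequenced from stranded TruSeq libraries. The submitters' processing notes name cutadapt, FastQC, HISAT2, StringTie and mm10, without versions. The deposited table holds FPKM and estimated counts per gene and library, both made by the authors. Estimated counts were rounded and tested with edgeR 4.0.16 (quasi-likelihood, TMM, 1 fit of 11 libraries with group and sex, genes with a mean count of at least 10, 19977 genes, Benjamini-Hochberg over all). FPKM values are levels. SE is the absolute log2 fold change over the root of F. DESeq2 1.42.0 and limma 3.58.1 (log2(FPKM + 1) and log2(FPKM + 0.1)) were alternatives, with R 4.3.3. No source used here says how samples were kept apart before sequencing, so p-values measure the spread between these samples, which may be partly technical. The fit was checked on simulated counts with 200 changed genes. Of 2-fold changes it recovered 46 to 52% in the pairwise comparisons and 25% for the difference between genotypes, so changes of that size could be missed.

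Members and lists were chosen with earlier results of these data known. Of the members, the text gives values in every mouse for the highest in each of 9 roles, the 3 with the smallest p in each pairwise comparison, and *Mki67*, *Top2a*, *Pcna*, *Ccnb1*, *Foxm1* and *E2f1*. Titles number the KO PTX mice differently from descriptions, and descriptions were used. Promoter windows are from RefSeq (GRCm38.p6). Of 36670 genes, 33500 had the same coordinates in GENCODE M21, 34 members among them. Markers for cell types were summed as FPKM.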

Additional observations from a re-analysis of the deposited data

Results flagged for a closer look

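*Ccnb2* was picked out because every WT PTX mouse was below every WT control and both KO PTX mice were above every KO control. Singly, the first held in 6.86% of all genes and the second in 11.8%. The share of all genes that met both was not counted, and the KO groups were apart by the step from 0.41 to 0.42 FPKM. In KO it was 0.41, 0.23 and 0.4 FPKM in controls and 0.45 and 0.42 FPKM after PTX, and the log2 change was 0.29 (SE 0.66). The PTX change was 2.09 higher in KO than in WT on the log2 scale (SE 0.89), and this difference did not pass edgeR's test (adjusted p = 0.758). Leaving out 1 mouse at a time gave -2.65 to -1.24 for the PTX change in WT.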

How the results depend on the processing

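No member was called in any of the 5 comparisons under any of the alternatives run, apart from *Ccnb2*, *Aurkb* and *Ttk* for PTX in WT by DESeq2, which gave them no adjusted p. The alternatives changed the filter, the size factors, the tool, the pseudocount, the covariates or the libraries. The median log2 fold change moved by more than the spread between replicates as follows. With limma on log2(FPKM + 1) the difference between genotypes was 0.22. With the macrophage score it was 1.38, and PTX in WT was -0.84. With the 4 libraries under 60 M as a covariate, PTX in KO was -0.097 and the difference 0.18, and with the spinal cord glia score PTX in KO was -0.099, KO after PTX -0.038 and the difference 0.12. These 2 covariates and the fit without the 4 libraries were chosen after seeing the data. Leaving out 1 mouse at a time gave -0.69 to -0.073 for PTX in WT, 0.23 to 0.54 for PTX in KO, -0.56 to -0.19 between controls, 0.17 to 0.82 after PTX and 0.52 to 1.18 for the difference. The value farthest from 0 for PTX in WT, after PTX and for the difference came without WT PTX 3. *Prc1* for PTX in WT turned to 0.11 with the macrophage score. For PTX in KO, *Mcm5* turned to -0.075 and -0.099, *Top2a* to -0.31 and -0.24 with the 4 libraries and the spinal cord score, and *Mki67* to -0.27 with the latter and ranged from -0.14 to 0.76 when 1 mouse was left out. *Mcm6* was called by DESeq2 at -1.87 and without KO control 3 at -2.38 (adjusted p = 0.0487), and the cause was not tested. Same-numbered mice correlated at -0.0913 to 0.107, so the numbers were not taken as pairs, and with the replicate number as a block the medians were -0.30, 0.50, -0.43, 0.50 and 0.84, with 0 members called. How depth limits genes with few counts was not measured.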
